A study of Neurospora crassa with 6 samples.

Results

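The effect of adding calcium in the absence of drug was read from a pair of RNA-seq libraries of the filamentous fungus Neurospora crassa, 1 from a culture in medium with 20 mM CaCl2 and 1 from a culture in standard minimal medium. Both cultures were wild-type conidia, the asexual spores, that had germinated for 6 h in the medium before 1 h with DMSO, the solvent control for staurosporine. The series holds 6 libraries, 1 for each combination of 3 media (0 Ca2+, standard and 20 mM CaCl2) with DMSO or 20 µM staurosporine, a protein kinase inhibitor that kills fungal cells. All 6 come from 1 wild-type background, and the labels give neither the calcium content of the standard medium nor any replicate culture. Values are FPKM, a read count scaled by transcript length and by the mapped reads of the library. The genes described are the 7112 of 9691 gene IDs whose FPKM averaged 1 or more over both libraries, and the measure is the log2 of the ratio of FPKM + 1 in 20 mM CaCl2 medium to FPKM + 1 in standard medium. With 1 library on each side there is no spread between replicates and no test, so a gene is called higher or lower when the ratio reaches 2 times in that direction, and a ratio between single cultures cannot be told apart from culture-to-culture variation.

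Fungal cells keep free calcium in the cytosol low by pumping it out of the cell and into the vacuole, the endoplasmic reticulum and the Golgi. Brief rises are read by calmodulin, which activates the phosphatase calcineurin and calmodulin-dependent kinases, and in yeasts calcineurin adjusts ion pumps and cell wall enzymes during ion stress.

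Most genes differed little between these libraries. The ratio had a median of 0.07 over the 7112 genes, with quartiles at -0.11 and 0.27, and 90% of genes lay between -0.44 and 0.73. At 2 times or more, 151 genes were higher (2.12% of those measured) and 57 were lower (0.801%), 2.92% together, while 60.2% of genes had a ratio above 0. The ratio reached 3.39 at the top and -3.52 at the bottom. FPKM summed to 1001098 in the 20 mM CaCl2 library and 940590 in the standard library, and 834 IDs were listed at 0 in the 20 mM CaCl2 library, against 890 in the standard library. The called genes were less abundant than most: the median of the mean FPKM was 10.1 for the higher genes and 11.2 for the lower genes, against 15.4 for all genes measured. A mean FPKM under 10 was found for 74 of the higher genes (49.0%) and 26 of the lower genes (45.6%), against 37.9% of all genes measured. The genes nearest to the call line were the complex I gene nuo40 and NCU01946, just called higher at 1.0004 and 1.0017, and the transcription factor gene rpn-4, just called lower at -1.0005. NCU11959 just missed the higher call at 0.998, and NCU11680 just missed the lower call at -0.993. At the expression limit, NCU07798 and NCU09532 were just inside at a mean FPKM of 1.00, and NCU07811 and NCU11662 just outside at 0.999.

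**Figure D1:**
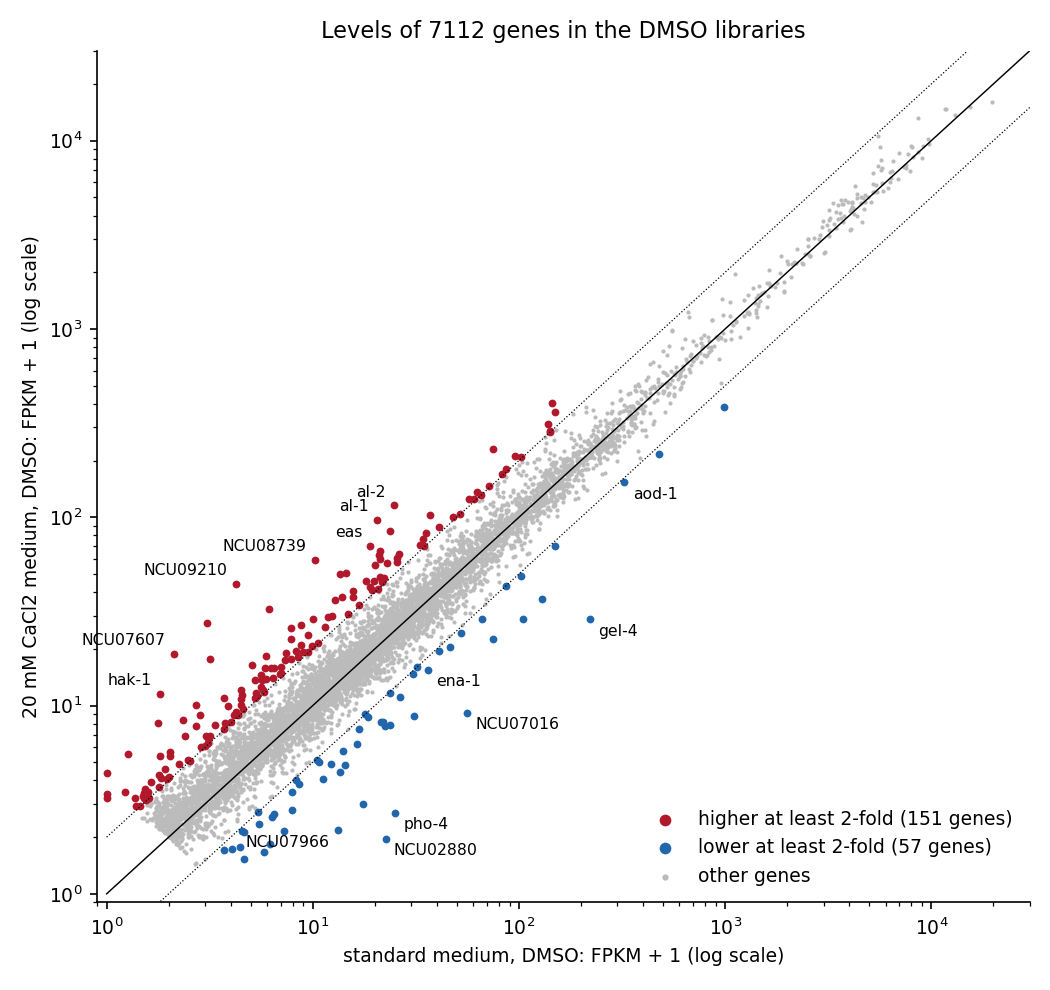
FPKM + 1 of the 7112 genes, on log scales, in 20 mM CaCl2 medium (vertical axis) and standard medium (horizontal axis), both with DMSO, 1 library each; the solid line is equality and dotted lines mark 2-fold. Most genes lie along the diagonal, with 151 genes above the upper dotted line (red) and 57 below the lower one (blue).

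The genes with the largest ratios upwards included several for enzymes and transporters. NCU09210, a heme peroxidase of the dyp type, stood at 43.4 FPKM in 20 mM CaCl2 medium and 3.24 FPKM in standard medium, a log2 ratio of 3.39. Its neighbour NCU09209, a galactose oxidase that makes hydrogen peroxide from galactose, had 16.7 FPKM in 20 mM CaCl2 medium and 2.18 FPKM in standard medium (log2 ratio 2.48). The sugar transporter NCU07607 had 17.8 FPKM in 20 mM CaCl2 medium and 1.12 FPKM in standard medium (3.15). All 3 were low in standard medium. The aspartic protease endothiapepsin, NCU08739, had 58.5 FPKM in 20 mM CaCl2 medium and 9.20 FPKM in standard medium (2.54). A peptide transporter of the major facilitator superfamily next to it, NCU08738, had 17.4 FPKM in 20 mM CaCl2 medium and 4.90 FPKM in standard medium (1.64). The oxysterol-binding protein gene NCU02190, of a family that moves sterols between membranes, had 31.4 FPKM in 20 mM CaCl2 medium and 5.14 FPKM in standard medium (2.40). Further down were tca-2, the 2-methylcitrate synthase of propionate breakdown, at 25.7 FPKM in 20 mM CaCl2 medium and 7.75 FPKM in standard medium (1.61), and the tartrate transporter NCU06305 at 24.8 FPKM in 20 mM CaCl2 medium and 6.86 FPKM in standard medium (1.71). The peptidyl-prolyl isomerase gene fkr-3 had 59.3 FPKM in 20 mM CaCl2 medium and 20.1 FPKM in standard medium (1.52).

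With the pseudocount of 1 used here, no gene on the calcium transport or calcium signalling list reached 2 times in either direction. However, 2 transport genes stood at the limit and passed it under other settings. Left out of these lists are NCU07966 (-2.60) and ena-1 (-1.22), annotated as calcium-transporting ATPase 3 and described below with the monovalent cation pumps. There were 9 measured transporters and channels and 14 measured signalling genes, and the list medians were 0.01 and 0.07, close to that of all genes. The nearest were the vacuolar calcium/proton exchanger cax, with 25.5 FPKM in 20 mM CaCl2 medium and 12.4 FPKM in standard medium (0.98), and NCU11680, annotated as the channel Yvc1, which in Saccharomyces cerevisiae releases vacuolar calcium, with 11.7 FPKM in 20 mM CaCl2 medium and 24.3 FPKM in standard medium (-0.99). With a pseudocount of 0.1 both passed 2 times, cax at 1.03 and NCU11680 at -1.05, and NCU11680 also passed with equal FPKM sums (-1.08) and with centred ratios (-1.03). The plasma membrane calcium pump nca-2 had 32.0 FPKM in 20 mM CaCl2 medium and 26.7 FPKM in standard medium (0.25), and a second vacuolar exchanger, NCU07711, had 24.4 FPKM in 20 mM CaCl2 medium and 20.3 FPKM in standard medium (0.25). The endoplasmic reticulum-type pump nca-1 (0.01), the Golgi pump pmr-1 (-0.07), the plasma membrane channel subunits mid-1 (0.19) and Cch1 (smco-1, -0.02) and the exchanger NCU02826 (-0.20) lay within the middle 90% of all genes.

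Among the signalling genes, calmodulin (cmd) was the most abundant and had the highest ratio, with 1111 FPKM in 20 mM CaCl2 medium and 859 FPKM in standard medium (0.37). The calcineurin catalytic subunit NCU03804 had 94.98 FPKM in 20 mM CaCl2 medium and 105.6 FPKM in standard medium (-0.15), and the regulatory subunit cnb-1 had 173 FPKM in 20 mM CaCl2 medium and 170 FPKM in standard medium (0.03). The lowest ratios were those of the calcineurin-binding protein NCU01504, at 44.7 FPKM in 20 mM CaCl2 medium and 63.7 FPKM in standard medium (-0.50), and of the kinase camk-4, at 20.0 FPKM in 20 mM CaCl2 medium and 28.2 FPKM in standard medium (-0.48). The kinases camk-1, camk-2 and camk-3 had ratios of 0.08, 0.17 and 0.20, and the phospholipase C genes NCU02175, NCU01266 and NCU09135 had 0.35, 0.18 and 0.06. The calmodulin-like genes NCU00171 and NCU03750 had 0.16 and -0.01, and the calcium sensor cse-1 had -0.16. In the medium series of 0 Ca2+, standard and 20 mM CaCl2, cax ran 3.80, 12.4 and 25.5 FPKM, nca-2 ran 9.53, 26.7 and 32.0 FPKM, and NCU11680 ran 9.25, 24.3 and 11.7 FPKM. The first step of this series and the comparison with added calcium share the standard library.

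Pumps for other ions were among the lowest genes. The P-type ATPase NCU07966 had 1.18 FPKM in 20 mM CaCl2 medium and 12.2 FPKM in standard medium (-2.60). The gene ena-1, of the fungal family that exports sodium and potassium, had 14.5 FPKM in 20 mM CaCl2 medium and 35.1 FPKM in standard medium (-1.22), and ph7, annotated as a sodium or potassium P-type ATPase, had 1.79 FPKM in 20 mM CaCl2 medium and 6.89 FPKM in standard medium (-1.50). NCU07966 and ena-1 carry the product name calcium-transporting ATPase 3 in the annotation but were counted here with the monovalent cation pumps. The sodium/proton antiporter NCU00430, at 20.5 FPKM in 20 mM CaCl2 medium and 41.1 FPKM in standard medium (-0.97), fell just short of the call. In the other direction, the high-affinity potassium transporter hak-1 had 10.5 FPKM in 20 mM CaCl2 medium and 0.81 FPKM in standard medium (2.67). The proton pump pma-1, which energises the plasma membrane, had 1442 FPKM in 20 mM CaCl2 medium and 969 FPKM in standard medium (0.57). Over the 12 measured monovalent cation and proton transport genes, 1 was higher (8.33%, against 2.12% of all genes) and 3 were lower (25.0%, against 0.801% of all genes), with a median of 0.19.

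Of 11 measured phosphate genes, 2 permeases were lower as well (18.2%, against 0.801% of all genes). The phosphate-repressible permease pho-4 had 1.70 FPKM in 20 mM CaCl2 medium and 24.1 FPKM in standard medium (-3.22), and the high-affinity permease pho-5 had 0.52 FPKM in 20 mM CaCl2 medium and 3.66 FPKM in standard medium (-1.61). Another transporter, NCU07375, had 44.4 FPKM in 20 mM CaCl2 medium and 79.3 FPKM in standard medium (-0.82). The other 8 phosphate genes had ratios from 0.05 to 0.67, among them the regulators nuc-2 (0.28) and preg (0.05) and the repressible alkaline phosphatase NCU08997 (0.10), so the list median was 0.26. The most abundant transporter of the list, NCU08743, was among these 8, with 235 FPKM in 20 mM CaCl2 medium and 181 FPKM in standard medium (0.38), so the phosphate transporters did not go one way.

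Across the media, the lower genes took different courses. In 0 Ca2+, standard and 20 mM CaCl2 medium, pho-4 ran 165.6, 24.1 and 1.70 FPKM, pho-5 ran 62.4, 3.66 and 0.52 FPKM, and ena-1 ran 118.9, 35.1 and 14.5 FPKM, a stepwise order. NCU07966 ran 35.1, 12.2 and 1.18 FPKM in the same order. The cell wall enzyme gene gel-4 ran 272, 220 and 27.8 FPKM. NCU11307, whose S. cerevisiae namesake CCC1 moves iron and manganese into the vacuole, ran 77.5, 73.6 and 21.6 FPKM. For these 2 genes the difference lay almost wholly between the standard and the 20 mM CaCl2 library. Of the higher genes, NCU09210 ran 0.82, 3.24 and 43.4 FPKM and hak-1 ran 0.95, 0.81 and 10.5 FPKM. The hydrophobin gene eas, which coats conidia with rodlets, ran 2.10, 18.0 and 69.7 FPKM.

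**Figure D2:**
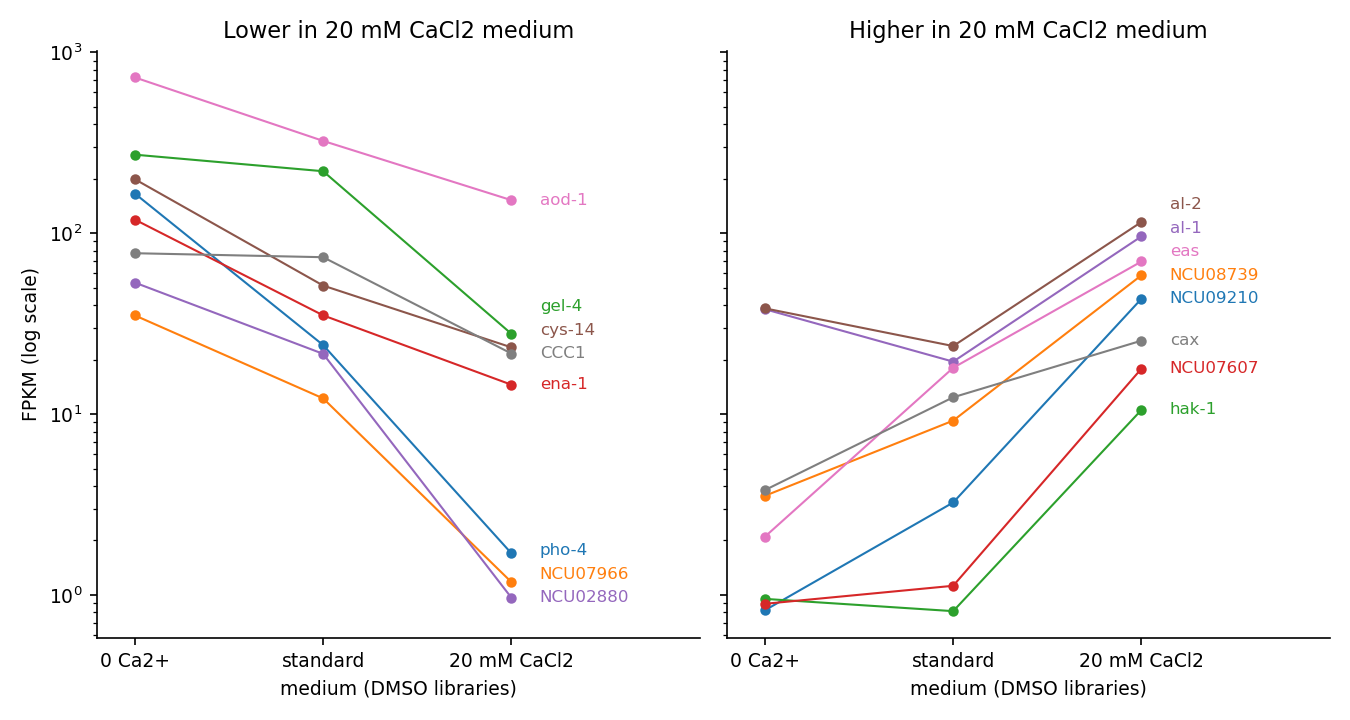
FPKM on a log scale in the DMSO libraries of 0 Ca2+, standard and 20 mM CaCl2 medium, 1 library each, for 8 genes lower (left) and 8 genes higher (right) in 20 mM CaCl2 medium; lines join the values of 1 gene. pho-4 and ena-1 step down over the media, gel-4 and CCC1 (NCU11307) drop at the last step, and al-1 and al-2 are lowest in standard medium; cax, at a log2 ratio of 0.98 with a pseudocount of 1, is just below the 2-fold limit.

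Other named genes at the lower end had cell wall, membrane, acid-base, sulfur and regulatory roles. The glucanosyltransferase gel-4, which remodels wall glucan, had 27.8 FPKM in 20 mM CaCl2 medium and 220.0 FPKM in standard medium (-2.94). NCU01068, a BAR domain protein of a class that shapes membranes, had 27.8 FPKM in 20 mM CaCl2 medium and 103.5 FPKM in standard medium (-1.86). NCU00090, the transcription factor pacC of the response to ambient pH, had 69.7 FPKM in 20 mM CaCl2 medium and 147.8 FPKM in standard medium (-1.07). Of the 7 measured genes of that pH pathway, a list added after values were seen, pacC alone reached 2 times (14.3%, against 0.801% of all genes), and the median was -0.02. Carbonic anhydrase NCU05653, which interconverts carbon dioxide and bicarbonate, had 4.77 FPKM in 20 mM CaCl2 medium and 13.1 FPKM in standard medium (-1.29). The sulfate permease cys-14 had 23.4 FPKM in 20 mM CaCl2 medium and 51.3 FPKM in standard medium (-1.10). The gene rpn-4, whose S. cerevisiae counterpart activates proteasome genes, had 14.995 FPKM in 20 mM CaCl2 medium and 31.0 FPKM in standard medium (-1.0005), and 0 of the other 33 measured genes of the proteasome list reached 2 times.

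Carotenoid synthesis had the highest median of the 34 gene lists. All 6 measured genes had a ratio above 0 and 3 were called higher, 50.0% of the list against 2.12% of all genes, with a median of 0.95. Phytoene desaturase, al-1, had 96.0 FPKM in 20 mM CaCl2 medium and 19.5 FPKM in standard medium (2.24), and phytoene synthase, al-2, had 115 FPKM in 20 mM CaCl2 medium and 23.8 FPKM in standard medium (2.23). The torulene-cleaving oxygenase cao-2 had 44.4 FPKM in 20 mM CaCl2 medium and 20.6 FPKM in standard medium (1.07). The remaining 3 fell short of 2 times. The geranylgeranyl pyrophosphate synthase al-3 had 50.0 FPKM in 20 mM CaCl2 medium and 28.1 FPKM in standard medium (0.81). The aldehyde dehydrogenase ylo-1, which completes neurosporaxanthin, had 81.2 FPKM in 20 mM CaCl2 medium and 51.2 FPKM in standard medium (0.66). The gene cao-1 had 6.25 FPKM in 20 mM CaCl2 medium and 3.11 FPKM in standard medium (0.82). It was listed by its name, carotenoid oxygenase 1, and a part in carotenoid synthesis was not tested. In 0 Ca2+ medium al-1 stood at 37.99 FPKM and al-2 at 38.4 FPKM, so the standard library was the lowest of the DMSO libraries for both.

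Genes under blue light and the clock were mostly above 0 as well. Of 24 measured, 3 were higher (12.5%, against 2.12% of all genes) and 0 lower. A ratio above 0 was found for 20 (83.3%, against 60.2% of all genes), and the median was 0.30. The photoreceptor gene vvd, which damps the light response, had 124 FPKM in 20 mM CaCl2 medium and 55.9 FPKM in standard medium (1.14). The photolyase phr, which repairs ultraviolet damage to DNA, had 41.6 FPKM in 20 mM CaCl2 medium and 18.0 FPKM in standard medium (1.16), and the light-induced gene bli-4 had 10.01 FPKM in 20 mM CaCl2 medium and 4.23 FPKM in standard medium (1.07). The light sensor wc-1 had 12.6 FPKM in 20 mM CaCl2 medium and 6.70 FPKM in standard medium (0.82), and cryptochrome (cry) had 69.7 FPKM in 20 mM CaCl2 medium and 41.0 FPKM in standard medium (0.75). All cultures were kept in constant light, per the labels' protocols.

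Of 14 measured conidiation genes, eas, at 69.7 FPKM in 20 mM CaCl2 medium and 18.0 FPKM in standard medium (1.89), and the VosA-type regulator NCU05964, at 2.42 FPKM in 20 mM CaCl2 medium and 0.57 FPKM in standard medium (1.12), were higher (14.3%, against 2.12% of all genes), and 0 were lower. The conidiation markers con-8, con-6 and con-10 stayed under 3 FPKM in both libraries, with ratios of 0.62, 0.41 and 0.13. Among 27 measured genes of sexual development, the mating-type gene matA-1 (1.17) and bek-1 (1.12) were higher, at 3.11 and 5.87 FPKM in 20 mM CaCl2 medium and 0.82 and 2.16 FPKM in standard medium, which is 7.41% of the list against 2.12% of all genes. In RNA of a whole culture, a larger share of cells of 1 stage and more RNA per cell cannot be told apart.

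**Figure D3:**
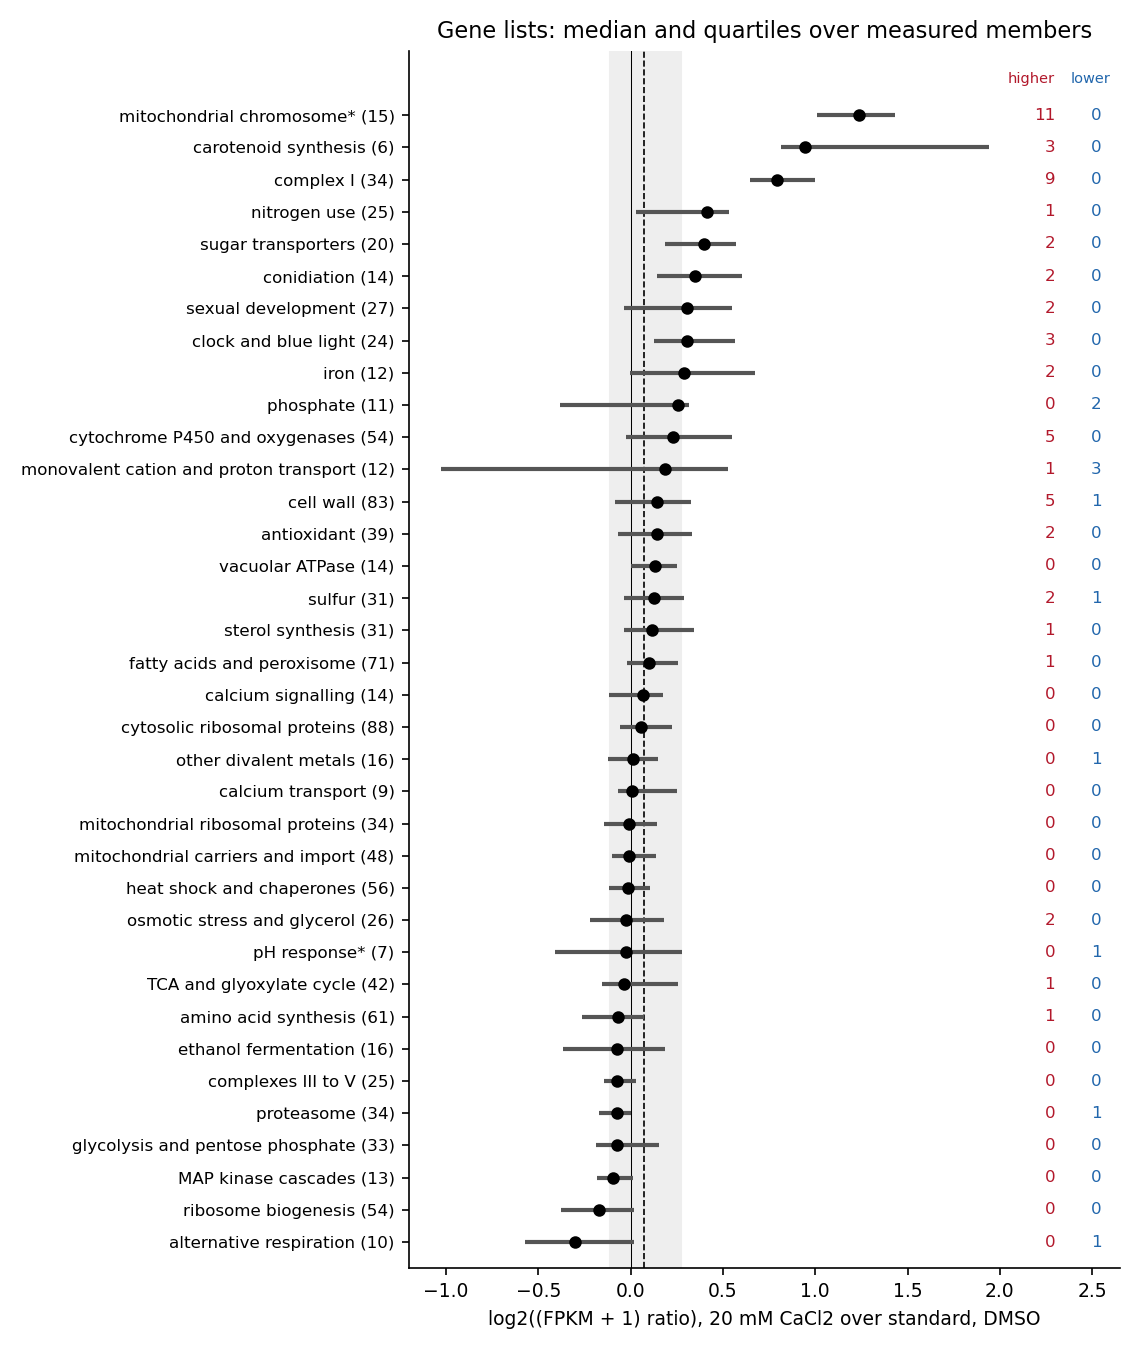
Median (point) and quartiles (bar) of the log2 ratio over the measured members of each gene list, with the number measured in brackets and the numbers called higher (red) and lower (blue) at the right; the grey band and dashed line are the quartiles and median of all 7112 genes, and lists with an asterisk were added after values were seen. The highest medians are those of the mitochondrial chromosome (1.24), carotenoid synthesis (0.95) and complex I (0.79), and 12 of the 34 lists without an asterisk have 0 calls.

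Nuclear genes for subunits and assembly factors of respiratory complex I, the NADH:ubiquinone oxidoreductase that feeds electrons into the mitochondrial chain, all had a ratio above 0. This held for 34 of 34 measured genes, against 60.2% of all genes, the median was 0.79, and 9 were called higher (26.5%, against 2.12% of all genes). The highest were nuo21.3b, with 360 FPKM in 20 mM CaCl2 medium and 149 FPKM in standard medium (1.27), nuo9.8, with 312 FPKM in 20 mM CaCl2 medium and 137 FPKM in standard medium (1.18), and nuo51, the flavoprotein that binds NADH, with 211 FPKM in 20 mM CaCl2 medium and 94.4 FPKM in standard medium (1.15). Core subunits lay in the same range, with nuo78 at 130 FPKM in 20 mM CaCl2 medium and 64.3 FPKM in standard medium (1.01) and nuo49 at 119 FPKM in 20 mM CaCl2 medium and 73.9 FPKM in standard medium (0.68). The assembly factors cia30 and cia84, which are not part of the finished complex, had smaller ratios of 0.28 and 0.34. The carrier protein acp-1 (0.23), the LYR protein NCU07783 (0.11) and nuo10.5 (0.36) were also near the lower end of the list. Summed over the 34 genes, the FPKM was 7403 in 20 mM CaCl2 medium and 4318 in standard medium; it was 3572 in 0 Ca2+ medium.

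Complexes III to V act further down the chain. Over their 25 measured genes the ratios ran from -0.42 to 0.23, with a median of -0.08, 10 above 0 (40%, against 60.2% of all genes) and 0 called. Cytochrome c (cyc-1) had 3542 FPKM in 20 mM CaCl2 medium and 3123 FPKM in standard medium (0.18), and the ATP synthase beta subunit atp-2 had 3697 FPKM in 20 mM CaCl2 medium and 4610 FPKM in standard medium (-0.32). The ranges of complex I and of complexes III to V overlapped only for ratios from 0.11 to 0.23. The list of alternative respiration, which bypasses these proton pumps, also held the flavohemoglobins NCU02096 and NCU10051, which are not part of that bypass. This mixed list lay lowest of the 34 lists, with a median of -0.30 over 10 genes. Without the flavohemoglobins it was not the lowest. Its middle ratios were then those of aod-3 (-0.07) and nde-2 (-0.19), and the median midway between them lay above that of ribosome biogenesis (-0.17). Its alternative oxidase aod-1, which passes electrons from ubiquinol straight to oxygen, had 152 FPKM in 20 mM CaCl2 medium and 324 FPKM in standard medium (-1.08). The flavohemoglobins NCU02096 and NCU10051, which detoxify nitric oxide, had 6.53 and 270 FPKM in 20 mM CaCl2 medium and 13.9 and 413 FPKM in standard medium (-0.98 and -0.61). In 0 Ca2+, standard and 20 mM CaCl2 medium aod-1 ran 726, 324 and 152 FPKM.

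IDs on the mitochondrial chromosome of the RefSeq assembly NC12, a list added after values were seen, had the highest median of any list here, 1.24. Of 17 IDs, 15 were measured, and all 15 had a ratio above 0, against 60.2% of all genes. Of these, 11 were called higher (73.3%, against 2.12% of all genes). NCU16016,NCU16017, an ID that joins 2 loci, had 402 FPKM in 20 mM CaCl2 medium and 143 FPKM in standard medium (1.48), and NCU16005 had 83.9 FPKM in 20 mM CaCl2 medium and 22.6 FPKM in standard medium (1.85). The 0 Ca2+ library was also above the standard library for this list. The sums over the 15 measured IDs were 379 FPKM in standard and 952 FPKM in 20 mM CaCl2 medium. In 0 Ca2+ medium the sum was 784 FPKM, taken over all 17 IDs. Here the standard library was thus the lowest of the DMSO libraries, unlike for the nuclear complex I genes. The RNA was selected with oligo(dT) beads, and the part of that selection in the level of mitochondrial transcripts was not tested.

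**Figure D4:**
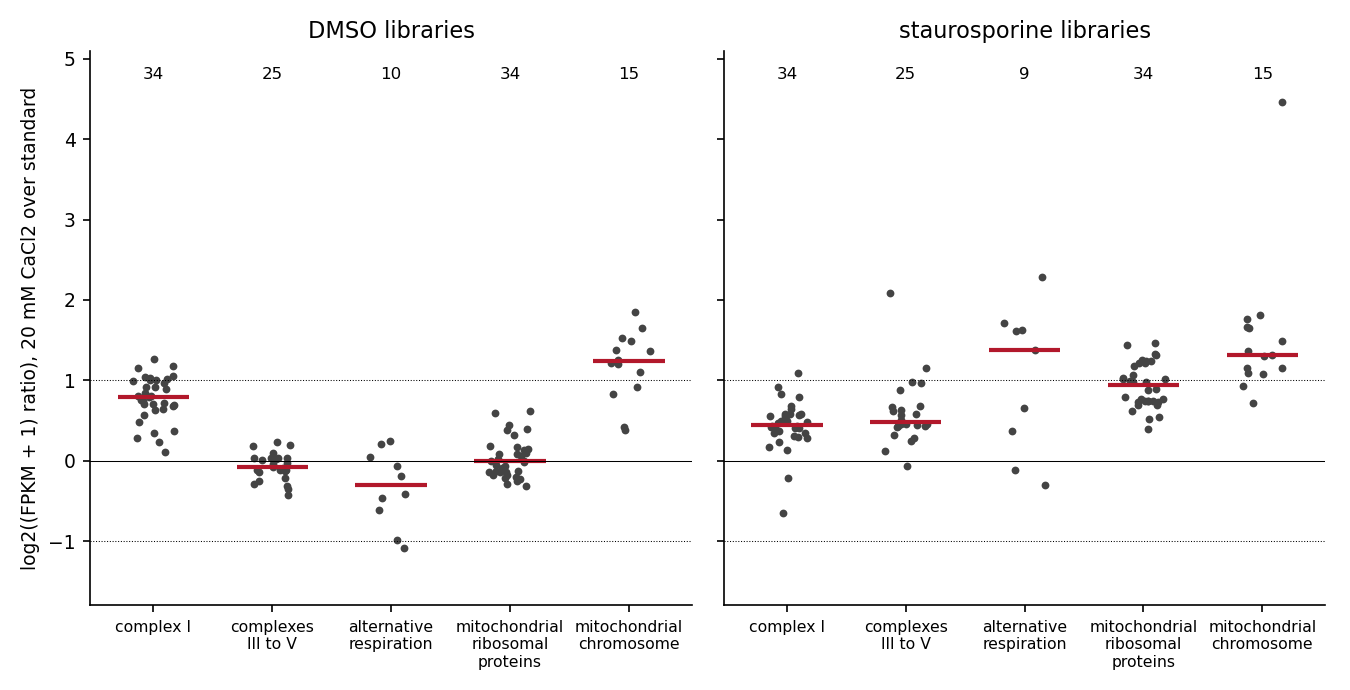
Log2 ratio of FPKM + 1, 20 mM CaCl2 over standard medium, for each measured gene of 5 lists (points, spread sideways for visibility; numbers above), with the list median (red bar), in the DMSO libraries (left) and the staurosporine libraries (right). With DMSO, complex I (median 0.79) and the mitochondrial chromosome (1.24) lie above 0 while complexes III to V and mitochondrial ribosomal proteins centre near 0; the top point at the right, NCU16024, was listed at 0 in standard medium with staurosporine.

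Nutrient uptake and assimilation gave smaller and mixed differences. Of 25 measured nitrogen genes 20 were above 0 (80.0%, against 60.2% of all genes), with a median of 0.41. Nitrate reductase, nit-3, was the 1 gene called (4%, against 2.12% of all genes called higher), with 70.1 FPKM in 20 mM CaCl2 medium and 31.9 FPKM in standard medium (1.11). Nitrite reductase, nit-6, which acts after it, had 66.4 FPKM in 20 mM CaCl2 medium and 34.6 FPKM in standard medium (0.92), and the glutamate dehydrogenase am, which fixes ammonium, had 1959 FPKM in 20 mM CaCl2 medium and 1114 FPKM in standard medium (0.81). The uricase NCU07853 lay at the other end, with 25.8 FPKM in 20 mM CaCl2 medium and 52.1 FPKM in standard medium (-0.98). Of 20 measured sugar transporters, NCU07607 and the high-affinity glucose transporter NCU04963, at 40.3 FPKM in 20 mM CaCl2 medium and 18.4 FPKM in standard medium (1.09), were higher (10%, against 2.12% of all genes), and the list median was 0.40.

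The 31 measured sulfur genes centred at 0.12, with 2 higher (6.45%, against 2.12% of all genes) and cys-14 lower (3.23%, against 0.801% of all genes). A second sulfate permease, NCU03235, had 16.7 FPKM in 20 mM CaCl2 medium and 6.87 FPKM in standard medium (1.17), the opposite direction from cys-14. NCU01652, annotated for O-acetylhomoserine metabolism, had 62.7 FPKM in 20 mM CaCl2 medium and 25.1 FPKM in standard medium (1.28). Of 12 measured iron genes 2 were higher (16.7%, against 2.12% of all genes). The ornithine-N5-oxygenase NCU07117, which begins siderophore synthesis, had 10.4 FPKM in 20 mM CaCl2 medium and 3.54 FPKM in standard medium (1.32), and the siderophore transporter NCU06132 had 18.3 FPKM in 20 mM CaCl2 medium and 8.43 FPKM in standard medium (1.03). The repressor of siderophore genes, sre, had 18.6 FPKM in 20 mM CaCl2 medium and 33.9 FPKM in standard medium (-0.83). Among 16 other divalent metal genes CCC1 was called lower (6.25%, against 0.801% of all genes), with 21.6 FPKM in 20 mM CaCl2 medium and 73.6 FPKM in standard medium (-1.72). The nickel transporter NCU08225 had the highest ratio, at 31.9 FPKM in 20 mM CaCl2 medium and 17.5 FPKM in standard medium (0.84).

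Of 83 measured cell wall genes, 5 were higher (6.02%, against 2.12% of all genes), 1 (gel-4) was lower (1.20%, close to the 0.801% of all genes) and the median was 0.14. The higher ones were the anchored wall proteins acw-12, at 56.2 FPKM in 20 mM CaCl2 medium and 22.0 FPKM in standard medium (1.31), and acw-4, at 29.6 FPKM in 20 mM CaCl2 medium and 13.9 FPKM in standard medium (1.04), the glycoside hydrolases gh76-3 (1.12) and NCU09791 (1.08), and the mannosyltransferase NCU08232 (1.10). Among 54 measured oxygenases and related enzymes 5 were higher (9.26%, against 2.12% of all genes) and 0 lower, with a median of 0.23; the highest after the galactose oxidase was the thymine dioxygenase NCU06416, with 48.8 FPKM in 20 mM CaCl2 medium and 12.6 FPKM in standard medium (1.87). Of 39 antioxidant genes 2 were higher (5.13%, against 2.12% of all genes), NCU09210 and the glutathione transferase gst-1, at 87.7 FPKM in 20 mM CaCl2 medium and 39.9 FPKM in standard medium (1.12). Of 26 genes for osmotic stress and glycerol 2 were higher (7.69%, against 2.12% of all genes), the aldose reductase NCU01233 (1.27) and the D-arabinitol dehydrogenase NCU02128 (1.07), and the list median was -0.02.

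Housekeeping lists held few calls. The median was 0.06 for 88 ribosomal protein genes listed as cytosolic and -0.01 for 34 listed as mitochondrial. It was -0.02 for 56 chaperone genes and -0.08 for 33 genes of glycolysis and the pentose phosphate path, with 0 calls in each. The cytosolic list was drawn by name and shares cyt-21 with the mitochondrial list. It also pairs genes of unlike level, such as NCU02757 (132 FPKM in standard medium) and NCU00413 (5195 FPKM), both named L2. Whether all its members are cytosolic was not tested. The 14 measured subunits of the vacuolar ATPase, which acidifies the vacuole and drives calcium/proton exchange, ran from -0.05 to 0.44 with a median of 0.13. The 54 ribosome biogenesis genes had a median of -0.17 and 0 calls, with 14 above 0 (25.9%, against 60.2% of all genes). The 13 MAP kinase cascade genes (median -0.10), 16 ethanol fermentation genes (-0.07) and 48 mitochondrial carrier and import genes (-0.01) completed the 12 lists with no gene past 2 times. Single higher calls, 1.41% to 3.23% of a list against 2.12% of all genes, came from the TCA and glyoxylate cycle (tca-2, median -0.04), amino acid synthesis (asn-2 at 1.09, median -0.07), sterol synthesis (NCU02190, median 0.12) and fatty acids and peroxisome (NCU05858 at 1.23, median 0.10).

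Many of the called genes had no informative name. A symbol or product name was available for 67 of the 151 higher genes and 17 of the 57 lower genes, against 4085 of all 7112. The lowest ratio of all belonged to the unnamed NCU02880, with 0.96 FPKM in 20 mM CaCl2 medium and 21.5 FPKM in standard medium (-3.52), and 53.3 FPKM in 0 Ca2+ medium. NCU07016 had 8.15 FPKM in 20 mM CaCl2 medium and 55.2 FPKM in standard medium (-2.62). NCU07235 had 1.99 FPKM in 20 mM CaCl2 medium and 16.6 FPKM in standard medium (-2.56), and NCU08183 had 35.8 FPKM in 20 mM CaCl2 medium and 128.7 FPKM in standard medium (-1.82). The highest unnamed gene was NCU03240, with 26.4 FPKM in 20 mM CaCl2 medium and 2.08 FPKM in standard medium (3.15). NCU05568, NCU00354 and NCU02297, counted as higher, were listed at 0 in standard medium, with 3.39, 2.38 and 2.22 FPKM in 20 mM CaCl2 medium, and are given no fold. Of the called IDs, 9 of the 151 higher and 1 of the 57 lower join several loci, against 60 of all 7112. Their reads cannot be assigned to 1 gene, and several of the higher ones are IDs of the mitochondrial chromosome. The labels do not state that reads were counted by strand, so reads of overlapping or antisense transcripts cannot be told apart.

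Some of the higher genes lay side by side. On the gene order of NC12, 126 higher protein-coding genes could be placed, and 16 of their 165 measured neighbours were also higher (9.70%, against 1.85% of all 6806 placed genes). They formed 7 runs. The galactose oxidase and peroxidase genes NCU09209 and NCU09210 were 1 run, the peptide transporter and endothiapepsin genes NCU08738 and NCU08739 another, and NCU08230, NCU08231 (an acyltransferase, 1.28) and NCU08232 (the mannosyltransferase) a run of 3. nit-3 lay next to nuo29.9, at 207 FPKM in 20 mM CaCl2 medium and 101 FPKM in standard medium (1.02), and acw-12 next to NCU08170. Among the 55 placed lower genes, the 1 run was pho-4 with the unnamed NCU12035, at 0.67 FPKM in 20 mM CaCl2 medium and 4.78 FPKM in standard medium (-1.79). Reads spilling between overlapping neighbours were not tested for.

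The staurosporine libraries of the same media provide a second comparison of 20 mM CaCl2 with standard medium that shares no library with the first. Differences were wider there: of 7219 genes measured, 873 were higher (12.1%) and 900 lower (12.5%), and 43.1% had a ratio above 0. FPKM summed to 666121 in the 20 mM CaCl2 library with staurosporine and 500315 in the standard library with staurosporine. Of the 151 genes higher with DMSO, 136 were measured and 50 were also higher with staurosporine (36.8%, against 12.1% of all genes there). They are 5.78% of the 865 genes higher with staurosporine that were also measured with DMSO. The 136 genes had a median ratio of 0.57. Of the 57 lower genes, 52 were measured and 16 were also lower (30.8%, against 12.5% of all genes there). They are 1.90% of the 843 genes lower with staurosporine that were also measured with DMSO, and the 52 genes had a median of -0.36. The ratio with staurosporine was above 0 for 97 of the higher genes (71.3%, against 43.1% of all genes there). It was below 0 for 32 of the lower genes (61.5%). Most of all genes there also lay below 0, with a median of -0.13, so the share for the lower genes says little. Across all 6956 genes measured in both comparisons, Pearson's r was 0.067, a description over genes that share their libraries.

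Several of the genes with the largest ratios went the same way in the staurosporine libraries. NCU09210 had 22.2 FPKM in 20 mM CaCl2 medium and 0.65 FPKM in standard medium with staurosporine (3.81), NCU08739 had 29.1 FPKM in 20 mM CaCl2 medium and 2.08 FPKM in standard medium (3.29), and hak-1 had 29.5 FPKM in 20 mM CaCl2 medium and 3.07 FPKM in standard medium (2.91). On the lower side, pho-4 had 3.35 FPKM in 20 mM CaCl2 medium and 45.3 FPKM in standard medium (-3.41), gel-4 had 98.3 FPKM in 20 mM CaCl2 medium and 723 FPKM in standard medium (-2.87), NCU07966 had 4.01 FPKM in 20 mM CaCl2 medium and 34.2 FPKM in standard medium (-2.81), and ena-1 had 41.3 FPKM in 20 mM CaCl2 medium and 152 FPKM in standard medium (-1.85). The other called pump, ph7, had 6.70 FPKM in 20 mM CaCl2 medium and 95.4 FPKM in standard medium (-3.65), so all 3 called pumps were lower with staurosporine too. The other permeases were mixed. With staurosporine, pho-5 had 1.44 FPKM in 20 mM CaCl2 medium and 2.89 FPKM in standard medium, short of 2 times on this scale (-0.67). The transporter NCU07375, at -0.82 with DMSO, had 76.5 FPKM in 20 mM CaCl2 medium and 16.7 FPKM in standard medium with staurosporine (2.13). The sulfate permease cys-14, lower with DMSO, had 20.1 FPKM in 20 mM CaCl2 medium and 8.62 FPKM in standard medium with staurosporine (1.13).

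The genes of the carotenoid list differed among themselves with staurosporine. Of the 6, 2 passed 2 times upwards, where 12.1% of all genes did. One was cao-1, listed by its name only, at 12.8 FPKM in 20 mM CaCl2 medium and 3.61 FPKM in standard medium (1.58). The other was phytoene synthase, al-2, at 17.3 FPKM in 20 mM CaCl2 medium and 7.98 FPKM in standard medium (1.03). The gene al-1 fell short, at 15.8 FPKM in 20 mM CaCl2 medium and 10.7 FPKM in standard medium (0.52), and cao-2 was near 0 (0.07). The ratios of al-3 and ylo-1 were below 0 there (-0.45 and -0.42).

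Other genes did not keep their direction. Of the called genes, 16 higher with DMSO were lower by 2 times with staurosporine, 11.8% of the 136 measured against 12.5% of all genes. Another 8 lower with DMSO were higher with staurosporine, 15.4% of the 52 measured against 12.1% of all genes. Both shares are near those of all genes. nit-3 had 13.04 FPKM in 20 mM CaCl2 medium and 40.1 FPKM in standard medium with staurosporine (-1.55), and aod-1 had 54.1 FPKM in 20 mM CaCl2 medium and 17.0 FPKM in standard medium (1.62). For complex I, 32 of 34 genes were above 0 with staurosporine too, against 43.1% of all genes there, with a median of 0.45. But complexes III to V then had a median of 0.48, so these lists lay at about the same level. The mitochondrial chromosome had a median of 1.31 there. The alternative respiration list, flavohemoglobins included, had 1.38 over 9 genes. The difference between the DMSO and staurosporine comparisons was not tested, since each group is 1 library.

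**Figure D5:**
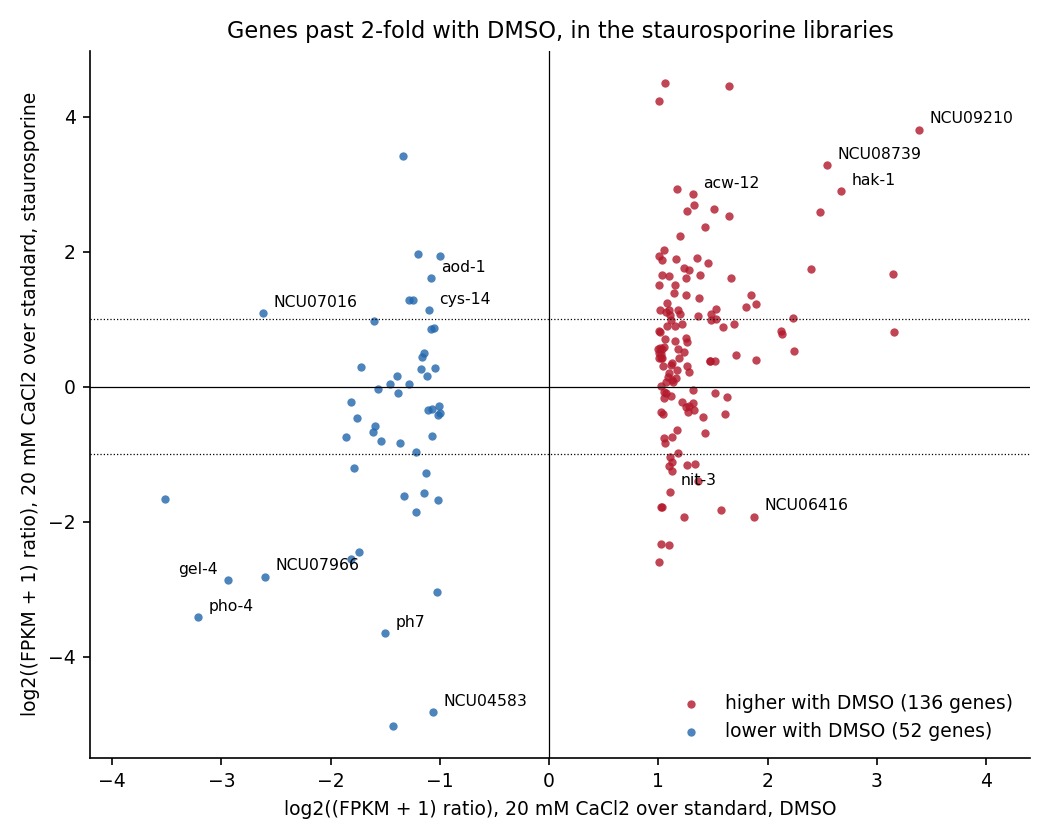
Log2 ratios of FPKM + 1, 20 mM CaCl2 over standard medium, with DMSO (horizontal axis) and with staurosporine (vertical axis) for the called genes that were measured in both, 136 higher (red) and 52 lower (blue) with DMSO; dotted lines mark 2-fold with staurosporine. NCU09210, hak-1, pho-4 and gel-4, near the ends of the horizontal axis, lie in the same direction on both axes, while nit-3, NCU06416, aod-1 and NCU07016 lie on opposite sides.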

How the data were processed

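The authors deposited tables of FPKM per gene ID, 1 table for each comparison of 2 libraries, with decimal commas. Per the labels, reads of poly(A) RNA were single and 50 bp long. Alignment with TopHat2 2.0.4 and quantification with Cufflinks 2.0.2 and Cuffdiff are named by the submitters' processing notes; the genome build was not given in the sources used here. FPKM, which depends on what else its library holds, was used as deposited; the authors' ratios, p-values and calls were not used. A library that stands in several tables had identical FPKM in each. Read counts are unknown: in low genes the commonest FPKM ratio of 20 mM CaCl2 to standard was 0.644 (24 of 975), too weak a step to recover reads, so no interval is given.

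From these values log2((FPKM + 1) ratios) were computed (Python 3.11.15, pandas 2.3.3, numpy 2.4.6) for genes with mean FPKM of at least 1. No test was possible with 1 library per group. Symbols, products and gene order came from the tables and RefSeq's gene table for NC12, which held 9204 of the 9691 IDs. The genes and the 34 gene lists were chosen with earlier results of these data known, and list patterns were trimmed after a first listing; 2 further lists were added after values were seen. Named genes are the 15 highest and lowest with a name, the next 10 at each end with mean FPKM of at least 10, the 5 at each end without a name, up to 6 members of each list with the largest ratios, and all calcium and carotenoid genes. Members of gene runs, of the complex I list beyond these and of lists at the call limit were named after their values were seen. Alternatives were other pseudocounts, other expression limits, centring, equal sums, single-locus IDs and removal of a gene length trend.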

Additional observations from a re-analysis of the deposited data

Results flagged for a closer look

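Among the genes picked by the naming rule given above, 9 had opposite calls in the DMSO and staurosporine comparisons. They stood at least 2 times higher or lower in 20 mM CaCl2 than in standard medium with DMSO. With staurosporine they stood at least 2 times the opposite way. There were 24 such genes among all genes, and these differences between the comparisons were not tested. The 24 were 16 of 136 genes higher with DMSO (11.8%, against 12.5% of all genes lower with staurosporine) and 8 of 52 lower with DMSO (15.4%, against 12.1% of all genes higher with staurosporine), so their number is near the share over all genes. Higher with DMSO and lower with staurosporine were the thymine dioxygenase NCU06416 (log2 ratio 1.87 with DMSO and -1.92 with staurosporine), the amino acid permease NCU07175 (1.34 and -1.14), the oxidoreductase NCU00260 (1.26 and -1.15), nitrate reductase nit-3, NCU05298 (1.11 and -1.55), and the glucose transporter NCU04963 (1.09 and -1.17). Lower with DMSO and higher with staurosporine were the alternative oxidase aod-1, NCU07953 (-1.08 and 1.62), the sulfate permease cys-14, NCU04433 (-1.10 and 1.13), carbonic anhydrase NCU05653 (-1.29 and 1.29) and the unnamed NCU07016 (-2.62 and 1.09). NCU07723, annotated as norsolorinic acid reductase, also went opposite ways (1.03 with DMSO and -2.33 with staurosporine) but was not picked by that rule.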

How the results depend on the processing

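With 151 genes higher and 57 lower as reported, a pseudocount of 0.1 gave 257 higher genes and one of 5 gave 57 higher and 25 lower. A mean FPKM of at least 10 left 77 higher and 31 lower. The other alternatives stayed within 1.5 times: 118 higher and 69 lower with equal FPKM sums, 129 and 64 with ratios centred, and 127 and 55 with the length trend removed. Equal sums turned the median of all genes slightly negative (-0.0067). Of 80 named called genes, 80 kept their sign in every setting, but this outcome was fixed in advance. A pseudocount or an expression limit cannot change a sign, and the other settings moved ratios too little to turn a ratio past 2 times. Of these 80 genes, 46 stayed past 2 times in every setting in which they were measured. The rest include nuo9.5, nuo11.5, nuo29.9, cao-2 and rpn-4, near the limit. Calls further from the limit were lost too: across the settings pho-5 (-1.61) shrank to -0.65 and ph7 (-1.50) to -0.81. The shares called in the phosphate, monovalent cation, carotenoid and complex I lists therefore depend on the setting. Of 165 named genes under 2 times, 14 passed it in some setting, 11 of them with a pseudocount of 0.1; cax and NCU11680 were the 2 calcium genes among the 14. The medians of calcium transport and other divalent metals changed sign in 2 settings each, those of calcium signalling and cytosolic ribosomal proteins in 1. The share of higher genes also higher with staurosporine ranged from 27.3% to 43.5%, that of lower genes from 27.1% to 38.8%. No paired analysis was possible because each group holds 1 library. Read counts are unknown, so no counting error can be given and what depth limits cannot be stated gene by gene.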
